A study of Mus musculus with 141 samples.

Results

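The mitochondrial ribosomal protein genes described here are the 78 protein-coding genes whose symbols start with Mrpl or Mrps and a number, of 36558 genes listed in the iWAT RNA-seq tables. All 78 were paired with a symbol and a position on GRCm38, 49 with an Mrpl and 29 with an Mrps symbol. The mice, of both sexes, belong to inbred and recombinant inbred strains of the HMDP (Hybrid Mouse Diversity Panel), and all of them received the high-fat, high-sucrose (HF/HS) diet. The 82 strains gave 67 libraries of females and 74 of males, never more than 1 for each sex of a strain, so a strain and the animal taken from it cannot be told apart within a sex. Both sexes were sequenced in 59 strains, which are called matched strains below. The paper's methods describe more than 1 sample per sex for some strains and a slightly smaller matched set, which the labels do not show. By their names, 24 strains are classical inbred strains, 40 are BXD strains derived from C57BL/6J and DBA/2J, 11 are AXB/BXA strains derived from A/J and C57BL/6J, 3 are CXB strains derived from BALB/cJ and C57BL/6J, and 4 are BXH strains derived from C57BL/6J and C3H/HeJ. No genetic manipulation or drug treatment is named in the labels. Alleles are given in the strain names BXD24/TyJ-Cep290<rd16>/J and BTBR T<+> tf/J.

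Mitochondria hold their own ribosomes, which make the few proteins of the oxidative phosphorylation (OXPHOS) complexes that mitochondrial DNA encodes. The RNA of these ribosomes comes from the mitochondrial genome, whereas every protein of the large and small subunits is encoded in the nucleus, made in the cytosol and imported. Some of these proteins descend from ribosomal proteins of bacteria, and others were added in the mitochondrial lineage. The symbols do not always give the place of a protein. Mrps18a and Mrps30, despite their symbols, are proteins of the large subunit, Mrps18b and Mrps18c belong to the small subunit, and Mrps36 is now known as a component of the 2-oxoglutarate dehydrogenase complex and not of the ribosome. With these places, 51 members belong to the large subunit, 26 to the small subunit and 1 to neither. A bacterial relative is known for 46 of them, and 31 have none.

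Depth ranged from 6269154 to 78562648 estimated counts per library, with a median of 30233245. The shallowest library, from a BXD34/TyJ female, stood apart, with a summed TPM (a level scaled for transcript length and library total) of the members of 973 where the next lowest library had 2657, and 72 of the 78 members had their lowest TPM in it. The sum of 4 Y-linked genes was 5.49 to 33.9 CPM (counts scaled to library size) in 65 libraries labelled female and 182 to 537 CPM in 73 labelled male. The BXD34/TyJ and BXD69/RwwJ libraries labelled female reached 1398 and 373 CPM, and the NZW/LacJ library labelled male had 8.05 CPM. Of these 3 libraries, only the one labelled NZW/LacJ male belongs to a matched strain. Adipocyte genes were abundant in all libraries of the matched strains, with a summed level of at least 3311 CPM for Adipoq, Plin1, Plin4, Cidec and Fabp4.

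All 78 members were expressed, and none had fewer than 23.6 estimated counts in any library. Mean TPM per member ranged from 4.54 to 165.9, with a median of 39.4. The subunits were alike in their typical level, with a median over members of 38.7 TPM in the large and 38.1 TPM in the small subunit. The summed TPM of all members had a median of 3782 in the 67 female libraries and 3878 in the 74 male libraries. The ranges overlapped, from 973 to 4858 in females and from 2679 to 4713 in males.

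The most abundant members were Mrpl33, Mrpl30, Mrps21 and Mrps6. Mrpl33, a small protein of the large subunit with a bacterial relative, had 165.9 ± 34.6 TPM (SD, 67 female and 74 male libraries), Mrpl30, also of the large subunit, 165.8 ± 29.4 TPM, and Mrps21 of the small subunit 165.7 ± 26.6 TPM. These 3 means differed by far less than their SD and have no order. Mrps6, a small-subunit protein with a bacterial relative, followed at 151.0 ± 57.7 TPM and had a wider range, from 26.6 to 293 TPM. At the other end were Mrpl23, a large-subunit protein at the exit of the polypeptide tunnel, with 4.54 ± 1.61 TPM, Mrpl1 of the large-subunit stalk with 13.2 ± 1.87 TPM, Mrps27 of the small subunit with 14.85 ± 2.84 TPM and Mrps30 with 15.4 ± 2.26 TPM. Mrps27 and Mrps30 differed by less than their SD. A processed pseudogene of Mrpl23, Mrpl23-ps1, had a median of 51.7 TPM. The low rank of Mrpl23 holds for the reads assigned to it, and how reads were split between both was not tested. Ranking by the median, or without the BXD34/TyJ female library, gave the same 4 highest and 4 lowest members, and that library moved no member's mean by more than 0.88%. Mrps18a had 37.3 ± 5.52 TPM, Mrps18b 40.25 ± 5.52 TPM and Mrps18c 84.4 ± 12.2 TPM, so the last of these 3 related genes was the most abundant. Mrps36 had 60.8 ± 11.3 TPM.

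**Figure D1:**
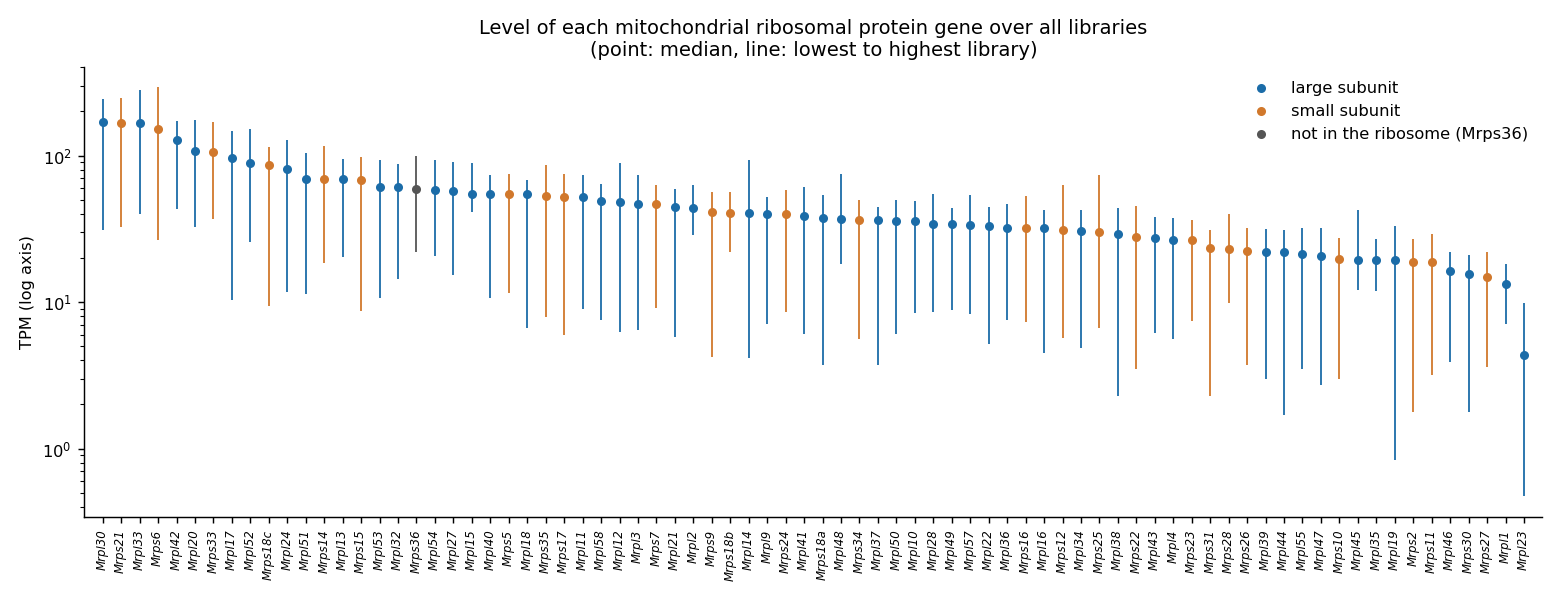
Level of each member in TPM on a log axis over all libraries, with the median as a point and a line from the lowest to the highest library, ordered by the median and coloured by subunit (1 gene, Mrps36, is in neither). Medians run from 4.36 TPM for Mrpl23 to 168.1 TPM for Mrpl30, and genes of both subunits are spread over the whole range. Reads assigned to the processed pseudogene Mrpl23-ps1 are not part of the Mrpl23 value.

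The members are spread over 17 chromosomes, with 11 on chromosome 11, 8 on chromosome 17, 7 on chromosome 6 and 6 on chromosome 7. A protein-coding gene starts within 1000 bp upstream on the other strand for 18 of the 78 members (23.1%), against 8.76% of the 15572 protein-coding genes tested. Among these pairs are Mrps12 with Sars2, which encodes a mitochondrial tRNA synthetase, with starts 172 bp apart, and Mrps18b with Ppp1r10, 45 bp apart. RefSeq promoter windows of GRCm38.p6, 300 bases from 250 before to 50 after a transcript's start, were found for 69 members (75 windows). The letters CCGGAAG, which ETS factors such as GABPA bind, stood on either strand of 34.7% of these windows and of 8.86% of all 32851 windows. The YY1 letters AAGATGGC were in 16% against 2.75%, and the NRF1 core GCGCATGC in 10.7% against 2.71%. The general elements differed less, with the GC box GGGCGG in 52% against 35.7% and CCAAT in 40% against 37.4%, and the TATA box TATAAA was in 6.67% against 13.6%. At least 1 of the ETS, YY1 and NRF1 strings occurred for 38 of the 69 members, and in none of the windows did an ETS match overlap a YY1 match. These matches are strings of letters and say nothing on binding in this tissue.

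The upstream stretches of 3 members with an ETS match are given to show these letters beside the members with the largest decrease and the clearest increase in females (Mrps22 and Mrpl52) and one with no called sex difference (Mrps18a). Each is the part of the RefSeq window before the transcript start that holds no exon, written 5′ to 3′ on the strand of the gene, with CCGGAAG or its reverse complement in capitals. They lie at chr9:98601680-98601929 (minus strand, Mrps22), chr14:54426659-54426908 (plus strand, Mrpl52) and chr17:46110754-46110985 (plus strand, Mrps18a) on GRCm38.p6.
Mrps22: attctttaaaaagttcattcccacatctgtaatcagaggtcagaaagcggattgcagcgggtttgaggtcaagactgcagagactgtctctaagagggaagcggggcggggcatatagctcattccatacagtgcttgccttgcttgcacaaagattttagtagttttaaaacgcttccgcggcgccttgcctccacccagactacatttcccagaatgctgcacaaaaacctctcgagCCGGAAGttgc
Mrpl52: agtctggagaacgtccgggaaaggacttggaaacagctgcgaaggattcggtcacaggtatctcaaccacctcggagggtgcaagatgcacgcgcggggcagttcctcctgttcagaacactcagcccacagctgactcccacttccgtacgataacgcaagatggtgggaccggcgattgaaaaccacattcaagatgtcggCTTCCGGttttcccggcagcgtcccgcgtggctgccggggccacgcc
Mrps18a: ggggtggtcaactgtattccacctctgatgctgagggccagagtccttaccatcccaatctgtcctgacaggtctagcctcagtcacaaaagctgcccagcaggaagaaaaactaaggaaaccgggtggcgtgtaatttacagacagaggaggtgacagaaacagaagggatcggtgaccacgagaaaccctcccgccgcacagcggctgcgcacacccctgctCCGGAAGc
In Mrps22 and Mrps18a the ETS letters stand near the start in the sense direction, and in Mrpl52 on the other strand. Since the 3 members were chosen for their sex difference, they do not show whether the letters go with its direction, which was not tested.

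The first comparison was that of the sexes within strains. Most members had a slightly lower level in females than in males. In the matched strains, the level in females was lower for 41 of the 78 members and higher for 4, each with an adjusted p under 0.05 (edgeR's quasi-likelihood test with a term for strain, Benjamini-Hochberg adjustment over 16765 genes). Over all genes tested, 29.8% were lower and 28.4% higher in females by the same rule, so the lower members exceed and the higher members fall short of that background. The log2FC (female vs. male) was below 0 for 66 members and ranged from -0.30 to 0.23. The median over members was -0.098, beside 0.012 over all genes tested, and 71 of the 78 members lay below the median of all genes. In the large subunit 28 members were lower and 4 higher of 51, and in the small subunit 13 were lower and none higher of 26. Of the 46 members with a bacterial relative 21 were lower and 3 higher, and of the 31 without 20 were lower and 1 higher. Whether these subsets differ was not tested.

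The size of the difference was small and its direction was not shared by all strains. The mean log2 CPM over the members was 4.14 at the lowest, 4.54 at the median and 5.26 at the highest in females, and 4.24, 4.67 and 5.32 in males. The ranges thus overlap almost fully. Within strains, females minus males came to -0.087 ± 0.27 (SD, n = 59), with a value below 0 in 39 strains. The extremes were NZB/BlNJ, with 4.504 in the female and 5.19 in the male library, and C57BLKS/J, with 4.97 in the female and 4.42 in the male library. By family, the difference was below 0 in 11 of 20 inbred, 18 of 26 BXD, 6 of 9 AXB/BXA and all 3 CXB strains, and in the 1 matched BXH strain.

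Among the 5 members with the largest decrease, Mrps22, a small-subunit protein without a bacterial relative (GRCm38 chromosome 9, 98588730 to 98601660), had 8.62 CPM at the lowest, 16.6 at the median and 31.01 at the highest in females and 12.8, 21.05 and 42.2 CPM in males. The ranges overlapped, yet the female was the lower one in 46 of 59 strains, with a log2FC of -0.30 (SE 0.055, edgeR adjusted p = 5.3e-06). Mrpl40, a large-subunit protein without a bacterial relative (chromosome 16, 18872018 to 18876862), had 15.7, 22.8 and 32.9 CPM in females and 16.4, 28.2 and 39.8 CPM in males. It was lower in the female of 50 strains, the most consistent decrease of the named members, with a log2FC of -0.28 (SE 0.041, edgeR adjusted p = 2.64e-08). Mrpl27, which sits close to the centre of the large subunit where peptide bonds are formed, had 6.38, 23.5 and 46.5 CPM in females and 9.35, 28.1 and 48.6 CPM in males. Its log2FC was -0.25 (SE 0.058, edgeR adjusted p = 0.000175, lower in 42 strains).

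Mrps25 of the small subunit had 14.02, 20.9 and 42.9 CPM in females and 15.4, 25.3 and 66.1 CPM in males, with a log2FC of -0.24 (SE 0.053, edgeR adjusted p = 7.02e-05). Of its 31-base stretches, counted on either strand, 68.9% also occur in transcripts of Nr2c2, which overlaps it on the opposite strand. The reads are stranded, and whether this sharing makes the split of reads between both uncertain was not tested. Mrps6 had 19.1, 62.3 and 169.7 CPM in females and 28.5, 79.1 and 169.4 CPM in males, with a log2FC of -0.24 (SE 0.094, edgeR adjusted p = 0.027). The highest female and the highest male library of Mrps6 were nearly the same, and the female was lower in only 37 strains. A sex difference of Mrps6, whatever its direction, was called in 10 of the 16 settings. With the mean of the adipocyte genes as a covariate the log2FC was 0.24, with the opposite sign. Mrps6 overlaps Slc5a3 and Gm49711 on the same strand and shares 18.4% of its 31-base stretches with Gm49711.

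The 4 members that were higher in females all belong to the large subunit. Mrpl52, which has no bacterial relative (chromosome 14, 54426909 to 54429756), had 11.3 CPM at the lowest, 17.8 at the median and 25.5 at the highest in females and 11.1, 15.01 and 22.9 CPM in males. The female was the lower one in only 14 strains, and the log2FC was 0.21 (SE 0.035, edgeR adjusted p = 4.15e-07). Mrpl23 had 2.45, 4.23 and 6.46 CPM in females and 2.11, 3.47 and 6.06 CPM in males, with a log2FC of 0.23 (SE 0.052, edgeR adjusted p = 0.000191). Mrpl24 (64.6 CPM at the median in females and 59.8 in males) and Mrpl14 (16.5 and 15.5 CPM) had a log2FC of 0.11 each, with edgeR adjusted p = 0.000525 and 0.0493. Mrpl14 passed in only 9 of the 16 settings computed for sex, whereas Mrpl52 passed in all 16.

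The members whose symbols do not give their place had lower levels in females, but not all of them passed the test. Mrps18b (25.3 CPM at the median in females, 29.3 in males) and Mrps30 (32.2 and 35.3 CPM) were lower in females, with a log2FC of -0.17 and -0.16 and edgeR adjusted p = 0.000132 and 0.000173. Mrps18c was lower with a log2FC of -0.10 (edgeR adjusted p = 0.00842). Mrps18a had a log2FC of -0.08 (edgeR adjusted p = 0.1) and Mrps36 one of -0.09 (edgeR adjusted p = 0.269), neither past the threshold. Of the most and least abundant members, Mrpl33 (log2FC -0.13, edgeR adjusted p = 0.00111), Mrpl1 (-0.16, adjusted p = 8.29e-05) and Mrps27 (-0.11, adjusted p = 0.0362, called in only 7 of 16 settings) were lower in females, whereas Mrpl30 (-0.10) and Mrps21 (-0.07) did not pass with adjusted p = 0.088 and 0.221.

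**Figure D2:**
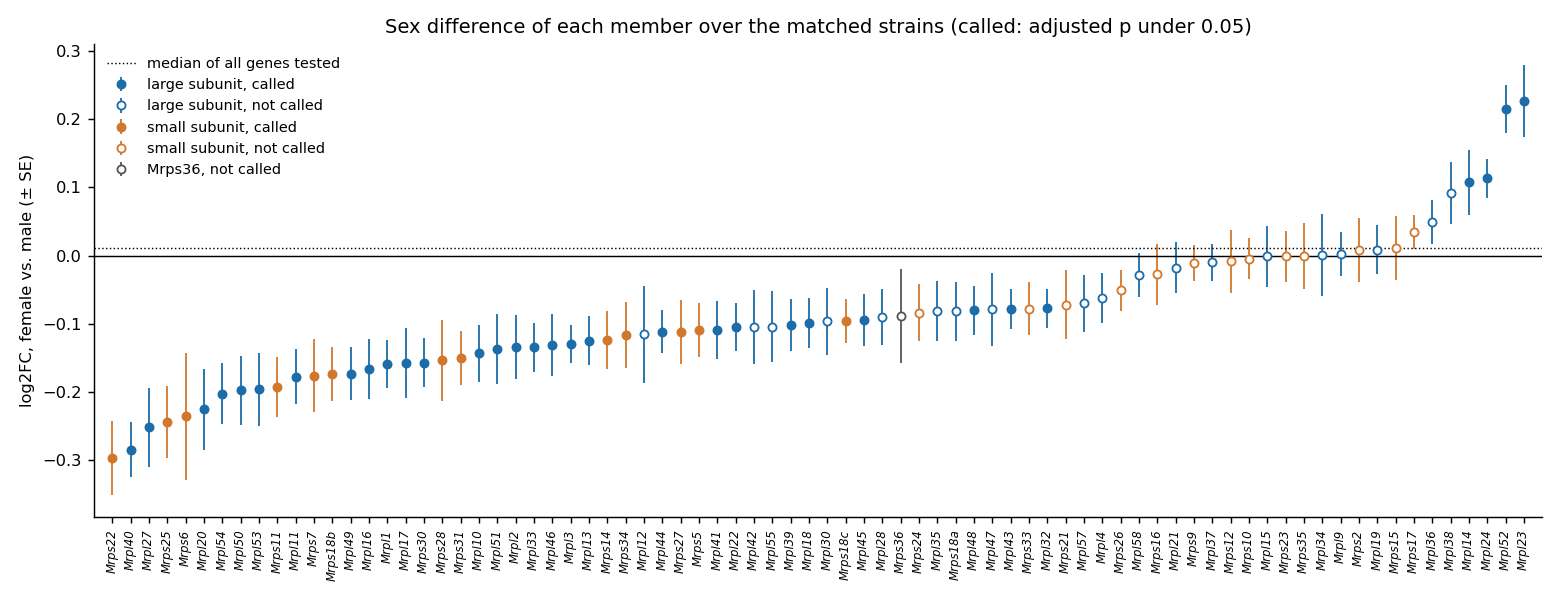
Log2FC (female vs. male) of each member over the matched strains, with bars of 1 SE, ordered by size and coloured by subunit. Filled points were called at an adjusted p under 0.05 and run from -0.30 (Mrps22) to 0.23 (Mrpl23), 66 of the 78 points lie below 0, and the dotted line is the median of all genes tested.

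**Figure D3:**
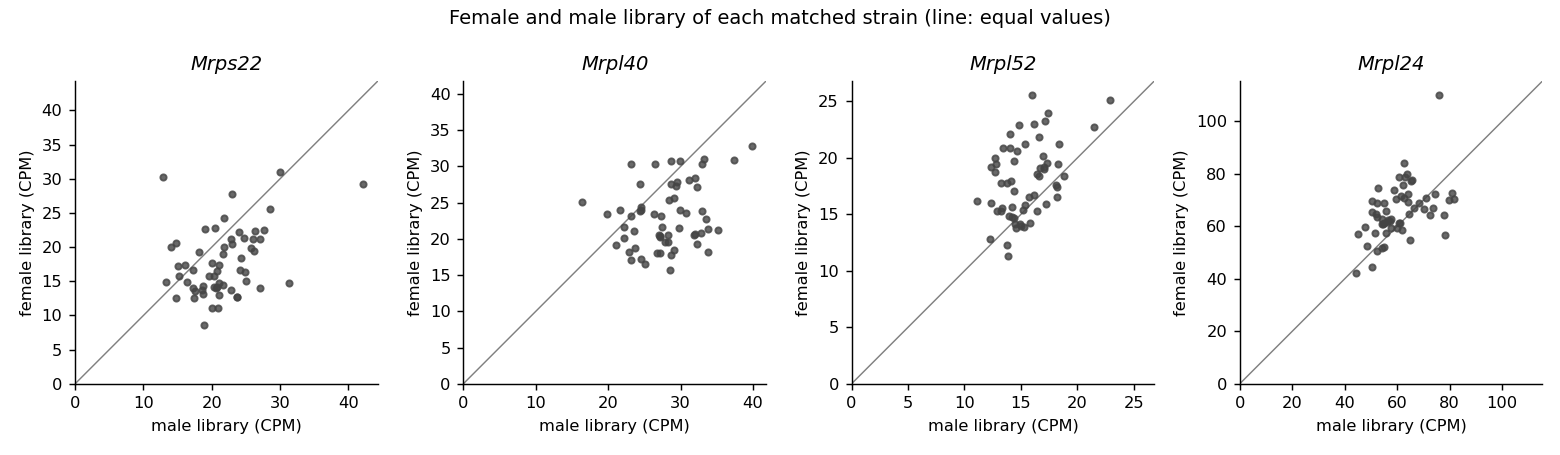
CPM of Mrps22, Mrpl40, Mrpl52 and Mrpl24 in the female library (y axis) against the male library (x axis), 1 point per matched strain, with a line of equal values. Of 59 strains, 46 lie below the line for Mrps22 and 50 for Mrpl40, against 14 for Mrpl52 and 18 for Mrpl24.

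The count depends on how libraries were scaled and on what moves with sex. With library totals in place of TMM scaling, 12 members were lower and 21 higher, beside 2774 and 7410 of 16765 genes. The medians shifted together to 0.011 over members and 0.12 over all genes. The members' median minus that of all genes was -0.109 in both scalings. With limma on log2(TPM + 1), 21 members were lower and 9 higher, beside 2878 and 5354 of 16765 genes. Without the strain term 25 members were lower and 3 higher, beside 4104 and 4086 of 16765 genes. Without the NZW/LacJ strain the members came to 43 and 3, beside 5163 and 5017 of 16766 genes.

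Genes of other cell types and of adipocytes moved with sex as well. All 5 adipocyte genes were lower in females with a median log2FC of -0.61, and their summed level was 3311, 17330 and 35450 CPM (lowest, median, highest) in females and 7524, 24070 and 42860 CPM in males. All 9 mammary epithelium genes were higher, at a median log2FC of 6.90, with a summed level of 82.4, 561 and 2235 CPM in females and 0.289, 2.59 and 476 CPM in males, and the defining keratins Krt14 and Krt5 had a median of 0 in males. All 5 macrophage genes were lower in females, none of 5 lymphocyte genes and none of 4 tested skeletal muscle genes passed, and of 6 brown and beige fat genes only Ppargc1a did, with a lower level. The lymphocyte genes had a summed median of 162.8 CPM in females and 12.85 CPM in males, with ranges of 3.59 to 929 and 2.28 to 700.3 CPM. With the adipocyte genes' mean as a covariate, 2 members were lower and 12 higher in females, beside 4086 and 4132 of 16765 genes. The member median was 0.053, beside -0.0002 over all genes, and 59 of the 78 members lay above 0. The members' median minus that of all genes was 0.053, against -0.109 in the reported fit. The general decrease is thus not found with this covariate, and the sign of the members' shift is reversed. In bulk tissue, fewer cells of a type and less RNA per cell cannot be told apart, and the part of these cell types in the result was not tested further.

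Other genes of mitochondrial translation gave a mixed picture, and their counts are to be read against the 29.8% of all genes that were lower and the 28.4% that were higher. Of 5 mitoribosomal proteins with other symbols, Aurkaip1, Chchd1 and Dap3 were lower in females and none was higher. Of 15 mitochondrial translation factors 8 were lower, among them the release factor Mtrf1 (log2FC -0.23, edgeR adjusted p = 0.000205) and the elongation factor Gfm1 (-0.22, adjusted p = 0.000621), and 2 were higher, among them Guf1 (0.14, adjusted p = 3.08e-06). Of 26 mitoribosome assembly factors 11 were lower, with the largest decrease in the pseudouridine synthase family gene Rpusd3 (-0.40, edgeR adjusted p = 7.98e-08), and 4 were higher, with the largest increase in Mettl17 (0.23, adjusted p = 0.000353). Of 20 mitochondrial tRNA synthetases 5 were lower, led by Iars2 (-0.28, edgeR adjusted p = 2.18e-07), and 4 higher, both below the shares over all genes. Only mt-Nd5 (-0.31) was lower among the 13 protein-coding genes of mitochondrial DNA, and none was higher. The median log2FC was -0.066 for the ribosomal proteins with other symbols, -0.091 for the translation factors, -0.027 for the assembly factors, -0.0017 for the tRNA synthetases and -0.087 for the mitochondrially encoded genes.

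Across strains, the levels of the members were correlated with each other. Over pairs of members, Pearson's r had a median of 0.68 in the female and 0.64 in the male libraries of the matched strains (3003 pairs, 59 libraries each), against 0.0011 and -0.0026 over all pairs of genes. These values are descriptive, since the points share library scaling and tissue composition. Mrpl23 stood apart, with r = -0.18 in females and -0.30 in males between its level and the mean of the other members. More reads were assigned to its processed pseudogene Mrpl23-ps1 (median 14.03 CPM) than to Mrpl23 itself. Whether the split of reads between both bears on this r was not tested. The next weakest were Mrpl24 with 0.34 and 0.41 and Mrpl19 with 0.40 in both sexes. The mean log2 CPM of the mitochondrially encoded genes went with the members' mean at r = 0.79 in females and 0.71 in males. That of the adipocyte genes did so at 0.53 and 0.63, and that of the macrophage genes had r = -0.64 and -0.26. For the lymphocyte genes r was -0.49 and -0.44, and for the mammary genes -0.12 and -0.13. The members' mean of a strain's female went only loosely with that of its male, at r = 0.33 over 59 strains.

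The next comparison was between strains. Among the 78 members, 72 differed from strain to strain (edgeR, adjusted p under 0.05), beside 71.2% of all genes tested. Under the other settings 67 to 76 members did so, and the share over all genes in those settings is not given here. The median F of the strain test was 2.20 over members and 1.92 over all genes. The SD of log2 CPM over strains had a median of 0.23 in members and 0.35 in all genes, and r between the sexes over strains a median of 0.35 in members and 0.30 in all genes. As a mean over members and both sexes, the level ran from 4.23 log2 CPM in BXD74/RwwJ to 5.29 in CXB11/HiAJ. Of the single members, which make up this mean, 50 of 78 were at their highest in CXB11/HiAJ, 12 in BXD12/TyJ and 8 in BXD14/TyJ. At their lowest were 33 in BXD74/RwwJ and 10 in BXD85/RwwJ. Since the members are correlated, these counts are no separate result, and the share over all genes is not given here.

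The largest F among members belonged to Mrpl27 (6.55, edgeR adjusted p = 1.81e-10), Mrpl48 (6.46), Mrps10 (5.07), Mrpl35 (5.05), Mrps26 (4.21), Mrps12 (3.69), Mrps33 (3.55) and Mrpl36 (3.48). In Mrpl27 the female and male level of a strain went together at r = 0.76. Its level was low in 5 inbred strains, with 8.66 CPM in C3H/HeJ, 9.54 in AKR/J (male library only), 9.91 in A/J, 11.2 in CE/J and 13.8 in CBA/J, and higher in C57BL/6J and DBA/2J at 27.2 and 27.75 CPM (mean of the 2 sexes). The strains descended from a low and a high parent fell on both sides. Of the 11 AXB/BXA strains, 6 had 8.56 to 10.8 CPM, near A/J, and 5 had 20.05 to 32.03 CPM, near C57BL/6J, with none between. The 4 BXH strains, descended from C57BL/6J and C3H/HeJ, had 8.39, 13.5, 27.1 and 28.2 CPM. The 39 BXD strains used here, whose parents are alike, ran from 19.15 to 41.4 CPM (the BXD34/TyJ library was left out of this description, and a strain with 1 library enters with it). Of the 31-base stretches of Mrpl27, 28% also occur in Gm6304, a gene too low to be tested.

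Mrpl35, a large-subunit protein with a bacterial relative (chromosome 6, 71812997 to 71826969), had 23.7 CPM in C57BL/6J, 14.8 in DBA/2J and 12.2 in C3H/HeJ. The BXD strains ran from 11.5 to 32.6 CPM with no wide gap, 24 of them nearer to C57BL/6J and 15 nearer to DBA/2J. Mrps10, a small-subunit protein with a bacterial relative, was lowest of the matched strains in NZW/LacJ at 8.37 CPM, a strain whose male library went against its label, and highest in CXB11/HiAJ at 21.4 CPM. Over the matched strains, Mrps12 of the decoding site of the small subunit ran from 7.24 CPM in AXB19a/PgnJ to 20.15 CPM in BXD12/TyJ. Among the same strains, Mrps26, Mrps33 and Mrpl36 had their highest level in CXB11/HiAJ, the one with the highest mean over members. C57BL/6J and DBA/2J differed by more than 0.5 on the log2 scale in 2 of 78 members (Mrpl35 and Mrps6), A/J and C57BL/6J in 3, BALB/cJ and C57BL/6J in 7, and C57BL/6J and C3H/HeJ in 8. The number of all genes past 0.5 is not given here. In the same order, the median size of the difference was 0.12, 0.088, 0.18 and 0.18 over members. Over all genes it was 0.21, 0.26, 0.35 and 0.30, larger in each pair.

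**Figure D4:**
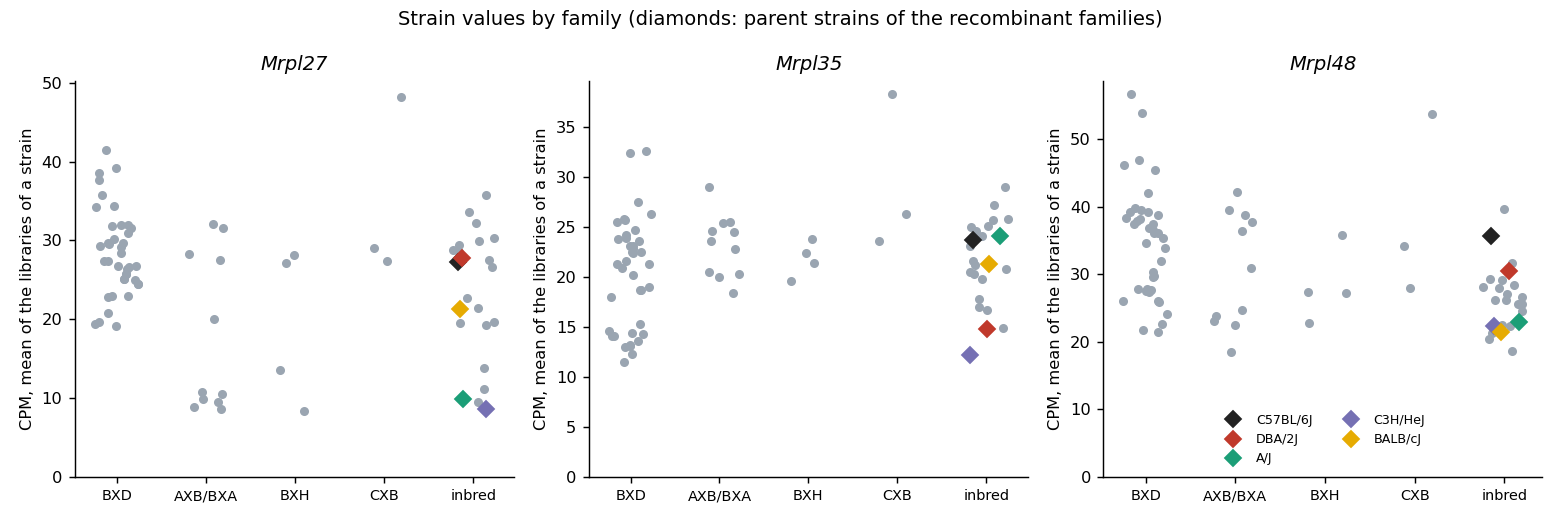
CPM of Mrpl27, Mrpl35 and Mrpl48, 1 point per strain (mean of its libraries) by family, with the parents of the recombinant families as diamonds and without BXD34/TyJ. Mrpl27 falls into a lower and a higher set of AXB/BXA and of BXH strains, whereas its BXD strains lie between 19.15 and 41.4 CPM.

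Mrpl48, a large-subunit protein without a bacterial relative (chromosome 7, 100545751 to 100608301), has a processed copy, Mrpl48-ps (chromosome 4, 88599175 to 88599810), and both were counted. The copy was at 0 CPM in C57BL/6J and at 6.52 CPM in DBA/2J, with Mrpl48 at 35.7 and 30.5 CPM. In 23 of the 39 BXD strains the copy was under 1 CPM and Mrpl48 was 29.8 to 56.7 CPM, and in the other 16 the copy was 4.62 to 8.85 CPM and Mrpl48 was 21.4 to 36.1 CPM. In AXB/BXA strains the same split gave 6 strains with Mrpl48 at 30.95 to 42.1 CPM and 5 strains at 18.4 to 24.7 CPM. The level of Mrpl48 was thus lower where reads were assigned to the copy, without overlap in AXB/BXA and with overlap in BXD strains. With the reads of the copy added to Mrpl48, the F of the strain test fell from 6.46 to 3.20 (edgeR adjusted p = 4.83e-05).

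**Figure D5:**
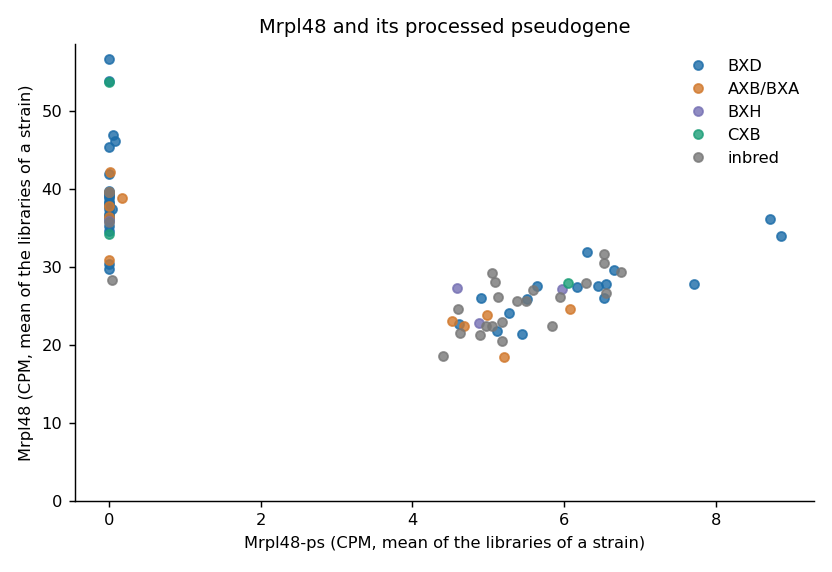
CPM of Mrpl48 (y axis) against its processed copy Mrpl48-ps (x axis), 1 point per strain (mean of its libraries), coloured by family and without BXD34/TyJ. Strains fall into a set with the copy under 1 CPM and a set with 4.404 CPM or more, and Mrpl48 lies at 18.4 to 36.1 CPM in the latter.

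Mrpl23 also has a copy, Mrpl23-ps1 (chromosome 2, 74591330 to 74591909), with a median of 51.7 TPM where Mrpl23 had 4.36 TPM. In CPM, the copy had a median of 14.03 over all libraries, and Mrpl23 one of 4.23 in the females and 3.47 in the males of the matched strains, so more reads were assigned to the copy than to the gene. With both added, the log2FC between the sexes was 0.10 (SE 0.030, edgeR adjusted p = 0.0032) in place of 0.23, still higher in females. Of all members, the median share of 31-base stretches found in another gene was 6.5%, with under 10% in 49 members and 50% or more in Mrpl53, Mrps34 and Mrps25. The copies of Mrps36 had a median of 0 TPM.

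The last comparisons were between families of matched strains, with the female and male counts of a strain added. In BXD compared with inbred strains, 3 members were lower (Mrpl15, Mrpl14 and Mrpl38) and 3 higher (Mrps14, Mrpl48 and Mrps10), beside 5.77% of all genes lower and 4.34% higher (edgeR). The median log2FC over members was -0.019, and the mean level over members was alike, with a median of 4.64 log2 CPM in 26 BXD and 4.66 in 20 inbred strains.

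Mrpl15 of the large subunit had 23.2, 31.2 and 46.3 CPM (lowest, median, highest strain) in BXD and 26.5, 35.3 and 53.6 CPM in inbred strains, with a log2FC of -0.28 (SE 0.078, edgeR adjusted p = 0.0171). Mrpl14 had 10.1, 14.9 and 22.95 CPM against 12.9, 17.15 and 28.5 CPM, with a log2FC of -0.24 (SE 0.076, edgeR adjusted p = 0.0327). Mrpl38, a large-subunit protein without a bacterial relative, had 16.15, 22.25 and 34.1 CPM against 20.7, 27.5 and 35.3 CPM, with a log2FC of -0.23 (SE 0.068, edgeR adjusted p = 0.0211). In each of the 3 the families overlapped, with the BXD median below the inbred one.

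Mrps14, of the small subunit and with a bacterial relative, had 26.7, 36.7 and 52.98 CPM in BXD and 23.6, 30.8 and 42.35 CPM in inbred strains, with a log2FC of 0.26 (SE 0.082, edgeR adjusted p = 0.033). Mrps10 had 11.9, 13.9 and 18.8 CPM against 8.37, 12.03 and 16.6 CPM, with a log2FC of 0.25 (SE 0.071, edgeR adjusted p = 0.0171). Mrpl48 had 21.1, 31.2 and 47.2 CPM against 20.3, 26.7 and 39.75 CPM, with a log2FC of 0.29 (SE 0.095, edgeR adjusted p = 0.0386), and with the reads of its copy added the log2FC was 0.20 and the call was lost (adjusted p = 0.0509). Without NZW/LacJ, only 1 of the 3 stayed higher, and Mrps14 (adjusted p = 0.0524) and Mrpl48 (adjusted p = 0.0614) were lost. In female libraries alone no member was called in either direction.

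In AXB/BXA compared with BXD strains, no member was called in either direction by edgeR, beside 0.942% of all genes lower and 1.54% higher. At an unadjusted p under 0.05 (edgeR), 4 of the 78 members were lower and 1 was higher, beside 1067 and 1211 of 16765 genes. DESeq2 called 2 members lower, beside 1.56% of all genes, namely Mrpl27 with a log2FC of -0.61 (adjusted p = 0.0442) and Mrps12 with -0.39 (adjusted p = 0.0448), for which edgeR gave adjusted p = 0.0881 and 0.0822. Limma-voom and limma on log2(TPM + 1) called Mrpl27 (adjusted p = 0.0237 and 0.0258) but not Mrps12 (adjusted p = 0.0956 and 0.654). With library totals edgeR called neither (adjusted p = 0.101 and 0.0600). Mrpl27 had 8.70, 10.97 and 32.6 CPM in AXB/BXA and 18.8, 26.7 and 40.8 CPM in BXD strains, and Mrps12 had 7.24, 8.65 and 15.1 CPM against 7.59, 12.3 and 20.15 CPM. The medians were lower in AXB/BXA strains, with overlapping ranges, and the split of Mrpl27 into 2 sets of strains lies within the AXB/BXA family. AXB19/PgnJ, AXB19a/PgnJ and AXB19b/PgnJ are related by name, and without AXB19a/PgnJ and AXB19b/PgnJ edgeR gave Mrpl27 a log2FC of -0.75 (adjusted p = 0.0576) and Mrps12 one of -0.32 (adjusted p = 0.31).

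The difference between the sexes was not shown to depend on the family. In the test of an interaction of sex with BXD against other strains, edgeR called 0 of 78 members, beside 0% of all genes, and at an unadjusted p under 0.05 it gave 0 members and 314 of 16765 genes. The interaction estimate was above 0 in 61 of 78 members and in 8849 of 16765 genes. Limma-voom and limma on log2(TPM + 1) called no member either.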

How the data were processed

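RNA-seq libraries of iWAT (labelled subcutaneous adipose) from 82 strains were analysed. The authors quantified stranded paired-end reads on GRCm38 with kallisto 0.46.1 and used tximport to obtain gene-level sums. Estimated counts are deposited without normalization between libraries, and TPM values, also deposited, correct for library total and transcript length. Symbols and positions came from GENCODE M21, with 35856 of 36558 identifiers paired. Counts were rounded. Genes passing filterByExpr (16765, all 78 members among them) were scaled by TMM and tested with edgeR 4.0.16 in R 4.3.3 (quasi-likelihood, ~ Strain + Sex in the 59 matched strains), with Benjamini-Hochberg adjustment over all genes and a threshold of 0.05. Pairs are the 2 libraries, 1 per sex, that carry the same strain label, as in the study's model. P-values rest on the spread between libraries of different animals. The SE of a log2FC was derived from its F statistic. Strains were tested jointly in the same model. Families were compared on the summed counts of a strain's libraries, and CPM and log2 CPM (prior count 2) are TMM scaled.

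Alternatives were DESeq2 1.42.0, limma 3.58.1 (voom, and log2 of TPM with 1 or 0.1 added), other size factors and filters, other samples, no replicate block, and an adipocyte covariate. The steps were tested on simulated data. The named members are the 5 called with the largest log2FC in each direction for sex, the 8 with the largest strain F, the 4 called with the largest log2FC in each direction in each family comparison, the 4 highest and 4 lowest by mean TPM, and 5 whose symbols do not give their place. Other genes named are the called genes with the largest sex log2FC of each list. Dap3, Guf1 and Mettl17, the copies and overlapping genes fall outside this rule and were chosen after their values were seen. The members and lists were chosen with earlier results of these data known. Sharing of 31-base stretches was counted over the annotated transcripts, on either strand. Promoter windows and sequences are from RefSeq (GRCm38.p6), and 9 members had no window. Windows were searched on both strands.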

Additional observations from a re-analysis of the deposited data

Results flagged for a closer look

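Reads were also assigned to 2 processed pseudogenes, which are no members since they are not protein coding. Mrpl23-ps1 had a median of 14.03 CPM over all libraries, from 9.73 to 22.1 CPM, above the limit of 0.4785 CPM that 3 counts give in the shallowest library. Mrpl48-ps had a median of 4.404 CPM, from 0 to 9.41 CPM, above the same limit. Both are signals outside the genes compared, and both lie on another chromosome than the gene they resemble. Neither passed the test between the sexes, with a log2FC of 0.069 (edgeR adjusted p = 0.0856) for Mrpl23-ps1 and -0.21 (edgeR adjusted p = 0.0623) for Mrpl48-ps. The F of the strain test was 2.13 for Mrpl23-ps1 and 58.9 for Mrpl48-ps. Whether these reads come from the copies or from the genes was not tested. Among the 9 matched AXB/BXA strains, the only group of 4 to 10, none of the 29 named members had a strain far enough from the others to pass Dixon's criterion.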

How the results depend on the processing

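The counts of members depended most on scaling, unit and covariates. The number lower in females (41) and higher (4) was 12 and 21 with library totals, 21 and 9 with limma on log2(TPM + 1) and on log2(TPM + 0.1), and 2 and 12 with the adipocyte covariate. Over all genes, 4988 were lower and 4759 higher in the reported fit, and 2774 and 7410 with library totals. These counts were 2878 and 5354 on log2(TPM + 1), 2855 and 5379 on log2(TPM + 0.1), and 4086 and 4132 with the adipocyte covariate. Without the replicate block for strain, 25 members were lower in the matched strains, beside 4104 genes, and 24 in all libraries, beside 4191. When the 3 libraries whose Y-linked genes went against their label were also left out, 30 members were lower, beside 4633 genes. The last setting, the addition of copy reads and the order of members without the BXD34/TyJ library were chosen after seeing the data. Members lower in BXD than in inbred strains (3) came to 6 with library totals and with the adipocyte covariate, 5 on either TPM scale, 0 in female and 1 in male libraries only. Members higher in BXD (3) came to 1 with the adipocyte covariate and without NZW/LacJ, 0 in female libraries only and 5 with all strains and strain as a random block. Members lower in AXB/BXA than in BXD strains (0) came to 1 with library totals and with limma-voom, 2 with DESeq2, with either TPM scale and with the random block, and 4 with the adipocyte covariate. The counts for strain, for higher in AXB/BXA and for the interaction stayed within 1.5 times of the reported value in each alternative computed for them. For the strain and family counts, the number of all genes called is not given here for most alternatives. Shifts in these counts are therefore not set apart from a general rise or fall of calls. The cause of the shifts in this paragraph was not tested.

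Over the alternatives, the sex log2FC of single named members lost its call in 52 cases, gained it in 17 and changed sign in 51, and kept its direction and its side of the threshold in the others. With the adipocyte covariate the changed values were Mrpl15 0.092, Mrpl27 0.051, Mrpl30 0.12, Mrpl33 0.022, Mrpl35 0.075, Mrpl48 0.055, Mrps10 0.064, Mrps12 0.11, Mrps14 0.080, Mrps18a 0.064, Mrps18c 0.0047, Mrps21 0.16, Mrps26 0.027, Mrps33 0.089, Mrps36 0.074 and Mrps6 0.24. With library totals they were Mrpl15 0.11, Mrpl30 0.013, Mrpl35 0.027, Mrpl48 0.029, Mrps10 0.10, Mrps12 0.10, Mrps18a 0.027, Mrps18c 0.013, Mrps21 0.037, Mrps26 0.058, Mrps33 0.031 and Mrps36 0.021. On log2(TPM + 1) and log2(TPM + 0.1) they were Mrpl15 0.041 and 0.041, Mrps10 0.0095 and 0.010, Mrps12 0.091 and 0.094, Mrps21 0.0085 and 0.0086, Mrps26 0.024 and 0.025, and Mrps33 0.0044 and 0.0045. With at least 10 counts in every library, Mrpl15 had 0.018, Mrps10 0.014 and Mrps12 0.0098. Limma-voom gave Mrpl15 0.00012 and Mrps10 0.0023, and without NZW/LacJ Mrps10 had 0.0022. Without the replicate block, Mrpl15 had 0.00031 and Mrps10 0.0036 in the matched strains, Mrpl15 0.056 and Mrpl35 0.098 in all libraries, and Mrpl15 0.0067 without the 3 libraries. Mrpl40 and Mrpl52 kept direction and call in all 16 settings.

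With 1 library per sex and strain, the error of a strain rests on the agreement of its female and male library, and within a sex the animal and the strain cannot be told apart. Depth did not limit the members, the lowest count being 23.6. Assignment of reads between genes and their copies does limit Mrpl23 and Mrpl48, and stretches shared with a gene on the same strand limit Mrpl53. Mrps25 and Mrps34 share 68.9% and 56.8% with a gene on the opposite strand, and whether this limits them was not tested.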

Other observations

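The mitoribosomal proteins with other symbols followed the members closely. The mean log2 CPM of Dap3, Ptcd3, Chchd1, Aurkaip1 and Gadd45gip1 went with that of the members. Over the 59 strains r was 0.95 in the female and 0.91 in the male libraries. For the mean log2 CPM of the translation factors it was 0.86 and 0.87. All 5 of these ribosomal proteins differed between strains, beside 71.2% of all genes. So did 11 of 15 translation factors, 23 of 26 assembly factors and 15 of 20 tRNA synthetases. The summed level of the 5 was 145.2, 183 and 302 CPM in females and 148.4, 193.5 and 319 CPM in males (lowest, median, highest). The ranges overlapped. The mean log2 CPM of the brown and beige fat genes went with that of the members at r = 0.66 in females and 0.51 in males. Their summed level, which was not the value correlated, varied widely. It ran from 6.31 to 3872 CPM in females and from 19.8 to 2379 CPM in males. These correlations are across libraries that share scaling and tissue composition.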
